A study of Mus musculus with 21 samples.

Results

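The PRSS and TMPRSS genes encode serine proteases of the trypsin fold and their close relatives, and they were examined here in the mouse testis. Rows of the deposited expression table were taken when the symbol began with Prss or Tmprss followed by a digit and the mean over the 21 libraries was at least 0.5 TPM (an abundance scaled for transcript length and for the total of the library). Of 55573 rows, 57 carried such a symbol and 30 reached the threshold. Of these 30, 29 were protein-coding and 1, Prss23os, was an antisense RNA that overlaps Prss23. The libraries came from whole testes of male C57BL6 mice that were wild type or Mageb4 knockout. Testes were taken either without heat (6 wild-type and 6 knockout libraries) or 72 h after heat shock (4 wild-type and 5 knockout libraries). The study asked how loss of Mageb4 affects the transcriptome with and without heat stress. The sources used here do not give the age of the mice, how hot or long the heat was, or how the gene was knocked out. Nothing in the labels beyond the words biological replicates says that libraries came from separate animals, so the p-values measure the spread between these libraries.

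Trypsin-like proteases cut proteins after basic residues with a catalytic triad of histidine, aspartate and serine. PRSS members are secreted or tethered to the membrane by a lipid anchor, and TMPRSS members carry their own transmembrane segment. Many PRSS genes are expressed mainly in male germ cells, where the products reach the acrosome, the vesicle that the sperm empties near the egg, or the sperm surface. Several have lost a residue of the triad and act without protease activity, such as PRSS37.

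Mageb4 (chrX:86250254-86305093), which belongs to the MAGE genes, was at 1.53 to 1.99 TPM in the 6 unheated wild-type libraries and at 7.82 to 8.26 TPM in the 4 heated ones. It was at 0.01 to 0.11 TPM in the 6 unheated knockout libraries and at 0.09 to 0.15 TPM in the 5 heated ones, so the genotype labels and the Mageb4 values went together. Heated wild-type library 3 stood apart: its summed level of 18 epididymal markers was 4336 TPM, while libraries 1, 2 and 4 of that group had 200 to 266 TPM, and Crisp1, an epididymal secretory gene, was at 2126 TPM there and at 0 to 0.35 TPM in those 3. The same sum was 533 to 587 TPM in unheated wild type and 501 to 593 TPM in the unheated knockout. In the heated knockout it was 549 to 788 TPM. Of the 12 epididymal markers tested, 2 rose, 3 fell and 7 were not called with heat in wild type (shares of all rows below). The summed level of 12 round spermatid markers, none of them a PRSS or TMPRSS gene, was 4093 to 4571 TPM in unheated wild type and 4096 to 4423 TPM in the unheated knockout. After heat it was 390 to 714 TPM in wild type and 2139 to 2791 TPM in the knockout. Acr, itself a trypsin-fold protease, Spaca1 and Izumo1 are among these 12 and are counted again in the related lists below. The sum of 10 pachytene and diplotene spermatocyte markers was 1234 to 1331, 1219 to 1330, 112 to 195 and 299 to 416 TPM in the same order of groups. The sum of 12 markers of elongating and condensing spermatids was 46219 to 57552, 48455 to 55710, 35410 to 47834 and 76678 to 95579 TPM. These markers were split with heat in wild type (limma, adjusted p under 0.05): 6 rose, 4 fell and 2 were not called. Of all rows tested, 46.4% rose and 44.0% fell there. In the knockout all 12 rose, where 40.3% of rows tested did. The sum of 15 Sertoli cell markers was 1542 to 1775, 1970 to 2590, 12250 to 14850 and 5614 to 7928 TPM. No listed gene of these 4 sets was at 0 throughout a group. In whole tissue, fewer cells of a type and less RNA per cell cannot be told apart, and the part of cell composition in the results below was not tested.

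Without heat, the family was dominated by a few germ-cell members. In unheated wild type, Prss39, which encodes the acrosomal protease TESP1, had the highest mean at 459 ± 8.13 TPM (SD, n = 6). Prss37, whose product is needed for male fertility, followed at 374 ± 21.1 TPM, Prss55, which encodes a lipid-anchored sperm protease, at 223 ± 4.61 TPM, and Prss54 at 192 ± 6.39 TPM. The libraries of these 4 genes did not overlap between neighbours in this order. Prss52 and Prss58 came next at 132 ± 9.62 and 124 ± 5.83 TPM, and their libraries did overlap. At the low end were Tmprss2 (0.552 ± 0.216 TPM), Tmprss5 (0.497 ± 0.234 TPM), Prss12 (0.432 ± 0.0591 TPM) and Tmprss13 (0.335 ± 0.0373 TPM). Tmprss2, Prss12 and Tmprss13 averaged under 0.5 TPM over the 12 unheated libraries and met the threshold through the heated ones, so their direction with heat was set in part by the choice. The 29 protein-coding members summed to 2111 ± 25.7 TPM (n = 6).

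Heat changed the tested PRSS and TMPRSS rows in wild type mostly downward. Of the 30, 21 fell and 9 rose at an adjusted p under 0.05, where 44.0% of the 21450 rows tested fell and 46.4% rose. The 9 include Tmprss2, Prss12 and Tmprss13, which met the threshold through the heated libraries. The median change of the 30 was -2.20 on the log2(TPM + 1) scale, against 0.06 over the rows tested. Heated and unheated wild-type libraries did not overlap for any of the 30, as for 84.5% of the rows tested. In the knockout, 15 fell, 10 rose and 5 were not called, where 40.2% of rows tested fell and 40.3% rose, and the median change of the 30 was -0.27. Libraries did not overlap for 24 of the 30 in the knockout, against 66.8% of rows tested. After heat the protein-coding members summed to 469 ± 80.3 TPM (n = 4) in wild type and to 1802 ± 204 TPM (n = 5) in the knockout, where the unheated knockout had 2054 ± 64.1 TPM (n = 6).

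**Figure D1:**
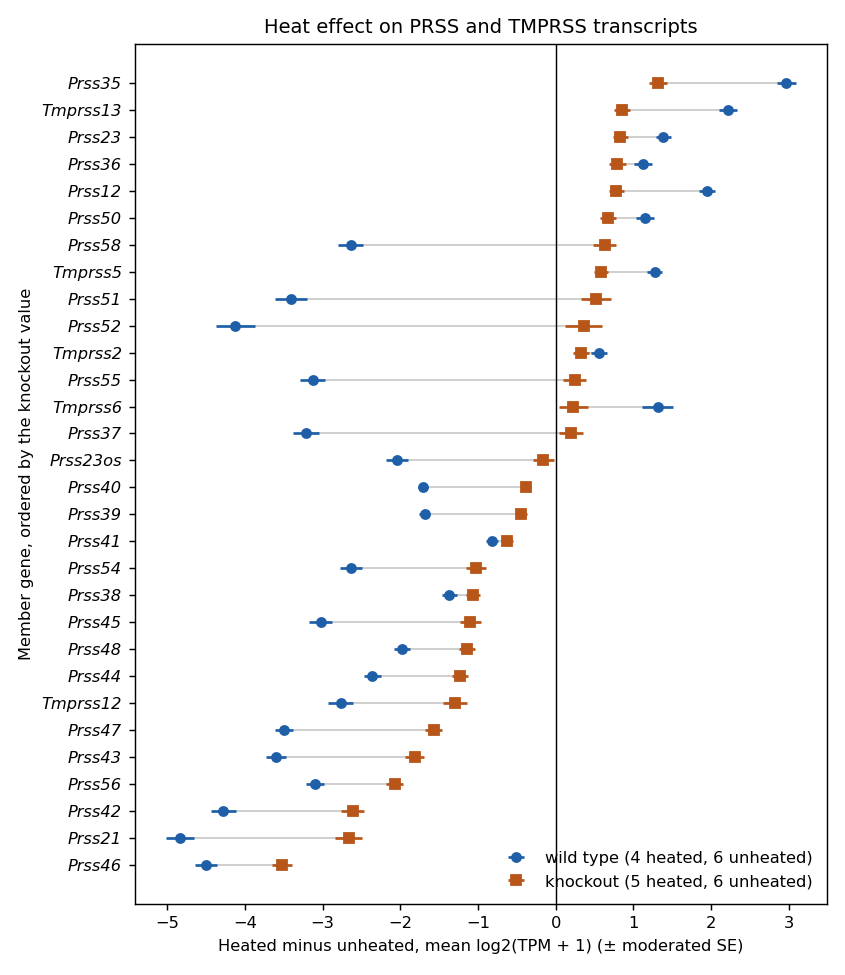
Change with heat of each of the 30 genes on the log2(TPM + 1) scale, in wild type (circles) and in the knockout (squares), with moderated standard errors. The lines are longest for Prss52, Prss51, Prss37, Prss55 and Prss58, which lie at -4.13 to -2.64 in wild type and at 0.20 to 0.63 in the knockout.

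The difference between the heat effects (the knockout change minus the wild-type change) was called for 27 of the 30. It was positive for 20 and negative for 7, where 31.6% of rows tested were positive and 45.4% negative. Its median was 1.19, against -0.20 over the rows tested. By direction the genes fell into 3 groups: 15 that fell in both genotypes, 6 that fell in wild type and did not fall in the knockout, and 9 that rose in wild type. Each of the 20 positive differences was in a gene that fell in wild type, and the 7 negative ones were in genes that rose there. The difference holds the wild-type change with its sign turned, so this pairing is favoured in any row. Its share over all rows tested is not given here. The difference was not called for Prss41 (0.19 ± 0.11, adjusted p = 0.1341), Prss36 (-0.33 ± 0.16, adjusted p = 0.06424) or Tmprss2 (-0.23 ± 0.15, adjusted p = 0.1543). Those calls were sensitive: the difference passed for Prss36 when heated knockout library 3 or 4, heated wild-type library 4, unheated knockout library 3 or unheated wild-type library 2 was left out (adjusted p = 0.01718 to 0.04913) and with a pseudocount of 0.1 (adjusted p = 0.04642). It passed for Prss41 without heated wild-type library 1 (adjusted p = 0.03671) and with median-of-ratios scaling (0.27, adjusted p = 0.02889), and for Tmprss2 under quantile normalization (adjusted p = 0.02404).

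Prss37, Prss51, Prss52, Prss55, Prss58 and the antisense RNA Prss23os fell in heated wild type and not in the heated knockout. These 6 moved by -4.13 to -2.04 (log2) with heat in wild type and by -0.16 to 0.63 in the knockout. The 5 protein-coding genes made up 44.5% of the family's summed level in unheated wild type, 22.3% after heat in wild type and 64.2% after heat in the knockout. The group was defined by these same heat calls, so its shares after heat follow in part from the sorting. In heated wild type, library 1 was the highest for each of the 6, and the round spermatid marker sum was also highest there, at 714 TPM. In the heated knockout, library 1 was the highest and library 4 the lowest for each of the 6. The round spermatid sum was 2700 TPM in library 1, below the 2791 TPM of library 5, and lowest in library 4, at 2139 TPM.

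Prss37 lies on chromosome 6 (mm10, chr6:40514824-40519508, minus strand) and encodes a protease-like protein that works in the maturation of the sperm surface protein ADAM3. Its unheated levels were 348 to 396 TPM with a median of 379 TPM in wild type and 326 to 411 TPM with a median of 373 TPM in the knockout. In heated wild type its 4 libraries were at 68.2, 27.5, 36.5 and 34.8 TPM, and in the heated knockout its 5 libraries were at 549, 360, 428, 330 and 474 TPM. The heated wild-type libraries lay far below the other 3 groups, and the heated knockout overlapped both unheated groups, with libraries 1, 3 and 5 above all 12 unheated libraries. The mean was 8.95-fold lower with heat in wild type (log2 change -3.21 ± 0.17, adjusted p = 6.731e-14) and 1.16-fold of the unheated level in the knockout (0.20 ± 0.16, adjusted p = 0.2509). The difference between these effects was 3.41 ± 0.23 (adjusted p = 2.715e-10).

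Prss58, 376 kb away on the same strand of chromosome 6 (chr6:40895270-40900387), rose in the knockout. It ranged from 117 to 133 TPM (median 124 TPM) in unheated wild type and from 104 to 127 TPM (median 119 TPM) in the unheated knockout. The heated wild-type libraries were at 31.2, 11.7, 16.3 and 22.2 TPM, and the heated knockout libraries at 226, 177, 191, 153 and 176 TPM. Every heated knockout library was above every unheated one. Prss58 fell by 2.64 ± 0.16 (log2) in wild type (adjusted p = 9.371e-13), a 6.11-fold lower mean. It rose by 0.63 ± 0.15 in the knockout (adjusted p = 0.0006605), a 1.56-fold higher mean.

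Prss55, Prss51 and Prss52 lie side by side on chromosome 14 (chr14:64075438-64113755), a stretch of 38.3 kb with 0 other protein-coding genes. Prss55 and Prss51 overlap on opposite strands and share 0 exon bases. Prss52 showed the deepest fall of the 3. It was at 121 to 145 TPM (median 131 TPM) in unheated wild type and at 114 to 147 TPM (median 129 TPM) in the unheated knockout. The heated wild-type libraries were at 18.7, 3.95, 3.83 and 6.03 TPM, and the heated knockout libraries at 211, 147, 172, 135 and 174 TPM. Library 1 was well above the other 3 heated wild-type libraries. The heated wild-type mean was 16.2-fold lower than the unheated one, and 28.6-fold lower without library 1. The log2 change was -4.13 ± 0.25 in wild type (adjusted p = 9.833e-13) and 0.36 ± 0.24 in the knockout (adjusted p = 0.1635), and the difference was 4.49 ± 0.35, the highest of the 30.

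Prss51 fell by 3.41 ± 0.21 in wild type, with heated libraries at 15.3, 3.42, 6.07 and 7.90 TPM against 79.8 to 90.3 TPM (median 87.6 TPM) without heat. In the knockout it rose by 0.52 ± 0.19 (adjusted p = 0.01815), with heated libraries at 145, 114, 133, 108 and 122 TPM against 72.8 to 92.7 TPM (median 87.4 TPM). Its heated and unheated knockout libraries did not overlap. For Prss55 the heated wild-type libraries were at 42.5, 16.4, 19.6 and 26.6 TPM against 217 to 229 TPM (median 223 TPM). Its heated knockout libraries were at 287, 226, 278, 211 and 261 TPM against 192 to 223 TPM (median 213 TPM), so that they overlapped. Prss55 changed by -3.13 ± 0.16 in wild type and by 0.25 ± 0.15 in the knockout (adjusted p = 0.1349). With only the 2 groups compared in the fit, the rises of Prss52 and Prss55 in the knockout were called (adjusted p = 0.005573 and 0.01265), and so they were without heated wild-type libraries 1 and 3 (adjusted p = 0.003287 and 0.02228). Under quantile normalization they were called with larger changes, 0.66 (adjusted p = 0.00614) and 0.47 (adjusted p = 0.007388).

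**Figure D2:**
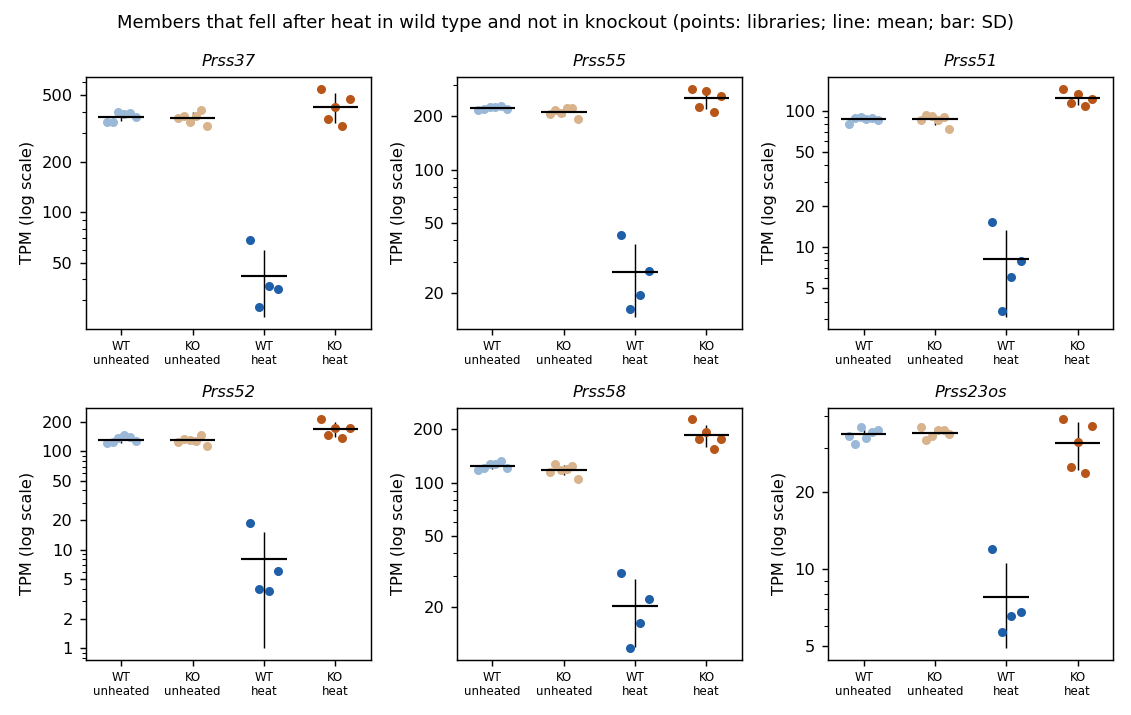
TPM (log axis) of Prss37, Prss55, Prss51, Prss52, Prss58 and Prss23os in each library, with the group mean (line) and SD (bar). In each panel the 4 heated wild-type libraries sit below all libraries of the other 3 groups.

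Prss23os (chr7:89510007-89511873, plus strand) went against its antisense partner. Its heated wild-type libraries were at 12.0, 5.69, 6.54 and 6.80 TPM against 30.9 to 36.0 TPM without heat, and its heated knockout libraries at 38.7, 25.2, 31.6, 23.9 and 36.4 TPM. The change was -2.04 ± 0.14 in wild type and -0.16 ± 0.13 in the knockout (adjusted p = 0.2822). Prss23, which encodes a secreted protease, rose by 1.39 ± 0.10 in wild type and by 0.84 ± 0.09 in the knockout. The pair shares 864 exon bases, 54.3% of the exons of Prss23os, and the sources used here do not say whether the abundances used the strand of the reads, so both values are uncertain.

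The 15 genes that fell in both genotypes were Prss21, Prss38, Prss39, Prss40, Prss41, Prss42, Prss43, Prss44, Prss45, Prss46, Prss47, Prss48, Prss54, Prss56 and Tmprss12. Their means were 1.99 to 37.9-fold lower with heat in wild type and 1.31 to 12.4-fold lower in the knockout. The fall was smaller in the knockout for 14 of the 15 by the test of the difference, and the exception was Prss41. Of all rows tested, 31.6% had a positive difference. The share among all rows that fell in both genotypes is not given here. The 15 were sorted in part by their fall in wild type, which favours a positive difference in this test. Prss38 was close to the threshold in that test (0.30 ± 0.13, adjusted p = 0.04532), and the call was lost when any of 13 of the 21 libraries was left out (adjusted p = 0.05532 to 0.1092). These were heated knockout libraries 1, 4 and 5, heated wild-type libraries 2 and 3, unheated knockout libraries 2 to 6 and unheated wild-type libraries 1, 4 and 6. It was also lost with no filter, under quantile normalization and with library weights (adjusted p = 0.07361, 0.0916 and 0.1391).

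Prss21 encodes testisin, a lipid-anchored protease of the sperm surface, and lies at chr17:23868056-23873114. It was at 81.3 to 92.8 TPM (median 88.0 TPM) in unheated wild type and at 79.4 to 87.8 TPM (median 84.1 TPM) in the unheated knockout. The heated wild-type libraries were at 4.50, 1.39, 1.30 and 2.06 TPM, and the heated knockout libraries at 14.8, 9.60, 11.7, 9.63 and 17.7 TPM. The groups stood in 3 separate steps, with the heated knockout between heated wild type and the unheated libraries. The log2 change was -4.84 ± 0.18 in wild type, a 37.9-fold lower mean, and -2.67 ± 0.17 in the knockout, a 6.60-fold lower mean. Prss41, its neighbour 23.9 kb away, changed less: the heated libraries were at 4.03, 3.07, 2.88 and 3.35 TPM in wild type and at 4.15, 4.36, 4.89, 5.26 and 4.71 TPM in the knockout, against medians of 6.58 and 7.88 TPM without heat.

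Prss39 and Prss40 encode the acrosomal proteases TESP1 and TESP2 and lie 40.9 kb apart on chromosome 1. Prss39 was at 450 to 471 TPM (median 457 TPM) in unheated wild type and at 437 to 442 TPM (median 439 TPM) in the unheated knockout. Its heated wild-type libraries were at 155, 111, 139 and 170 TPM, and its heated knockout libraries at 312, 320, 341, 320 and 325 TPM. The mean was 3.20-fold lower in wild type and 1.36-fold lower in the knockout, and the log2 changes were -1.69 ± 0.07 and -0.44 ± 0.07. Prss40 moved by similar amounts, with means 3.35-fold and 1.31-fold lower and log2 changes of -1.71 ± 0.07 and -0.38 ± 0.06. Under quantile normalization the fall of Prss40 in the knockout was not called (-0.10, adjusted p = 0.2075). Prss40 shares 289 exon bases with Cfc1 on the other strand.

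Tmprss12, the member with its own transmembrane segment among these 15, encodes a testis protease needed for male fertility. Its heated wild-type libraries were at 2.56, 1.14, 2.74 and 4.98 TPM against 22.5 to 25.5 TPM (median 23.2 TPM) without heat. Its heated knockout libraries were at 10.9, 8.42, 9.12, 8.10 and 10.1 TPM against 23.2 to 24.7 TPM (median 24.5 TPM). The log2 changes were -2.77 ± 0.16 and -1.30 ± 0.15, and the difference between them was 1.47 ± 0.22. Prss54, the fourth in level without heat, fell 6.19-fold in wild type and 2.02-fold in the knockout. Prss47 and Prss56, which are at a mean of 15.2 and 11.3 TPM in unheated wild type, were at 0.08 to 0.70 TPM and 0.20 to 0.87 TPM in its heated libraries.

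A cluster of 6 members in 66.5 kb of chromosome 9 (chr9:110798166-110864629) held genes of opposite direction. In order along the plus strand they are Prss42, Prss44, Prss43, Prss45, Prss46 and Prss50, with 0 other protein-coding genes between them. The first 5 fell in both genotypes and Prss50 rose in both. Prss42, Prss43 and Prss44 encode testis serine proteases linked to the progress of meiosis, and Prss50 encodes a protease with threonine in place of the catalytic serine.

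Prss46 was at 91.8 to 106 TPM (median 98.1 TPM) in unheated wild type and at 87.5 to 99.1 TPM (median 91.0 TPM) in the unheated knockout. Its heated libraries were at 4.55, 2.63, 3.25 and 3.26 TPM in wild type and at 6.41, 6.41, 6.51, 5.31 and 12.5 TPM in the knockout. Library 5 of the heated knockout was high, and the other 4 lay close together. Prss46 had the deepest fall of the 30 in the knockout, with a log2 change of -3.52 ± 0.13 (12.4-fold lower), beside -4.51 ± 0.14 (28.7-fold lower) in wild type. Prss42 followed a like course, with heated libraries at 2.10, 0.94, 1.23 and 3.23 TPM in wild type and at 8.93, 5.49, 6.90, 6.01 and 10.2 TPM in the knockout, against medians of 51.9 and 49.9 TPM without heat. Prss43, Prss44 and Prss45 changed by -3.60 ± 0.13, -2.36 ± 0.11 and -3.02 ± 0.15 (log2) in wild type and by -1.81 ± 0.12, -1.23 ± 0.10 and -1.10 ± 0.14 in the knockout.

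Prss50 begins 1444 bases after the end of Prss46. It was at 15.5 to 20.1 TPM (median 18.7 TPM) in unheated wild type and at 17.4 to 27.6 TPM (median 20.2 TPM) in the unheated knockout. The heated libraries were at 47.6, 40.9, 36.2 and 40.9 TPM in wild type and at 26.1, 35.9, 34.7, 36.9 and 36.3 TPM in the knockout. Library 1 of the heated knockout was low and lay inside the unheated knockout range. The rise was 1.15 ± 0.11 (log2), 2.29-fold, in wild type and 0.67 ± 0.11, 1.62-fold, in the knockout. The difference of these effects, -0.48 (adjusted p = 0.009363), was not called under quantile normalization (-0.31, adjusted p = 0.06201).

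**Figure D3:**
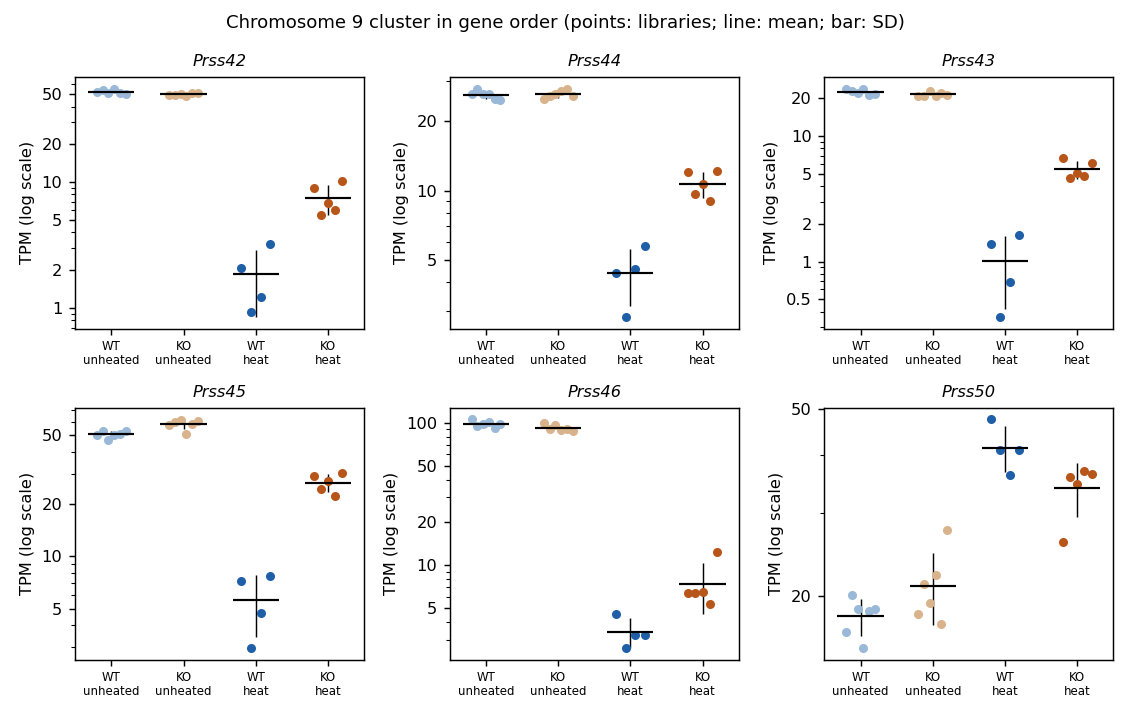
TPM (log axis) of the 6 chromosome 9 genes in their order along the chromosome, per library, with the group mean (line) and SD (bar). The heated libraries lie below the unheated ones for Prss42, Prss44, Prss43, Prss45 and Prss46, and above unheated wild type for Prss50.

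The 250 bases upstream of the start of Prss46 and Prss50 are shown because these neighbours moved in opposite directions, and those of Prss37 and Prss58 because this pair fell in wild type and not in the knockout. Sequences are from RefSeq on GRCm38.p6, which held promoters for 21 of the 30 genes. They lie at chr9:110844256-110844505 (plus strand), chr9:110857714-110857963 (plus strand), chr6:40519509-40519758 (minus strand) and chr6:40900388-40900637 (minus strand), and capitals mark a match to CCAAT or to GTTGCCA, here read on the other strand.
Prss46: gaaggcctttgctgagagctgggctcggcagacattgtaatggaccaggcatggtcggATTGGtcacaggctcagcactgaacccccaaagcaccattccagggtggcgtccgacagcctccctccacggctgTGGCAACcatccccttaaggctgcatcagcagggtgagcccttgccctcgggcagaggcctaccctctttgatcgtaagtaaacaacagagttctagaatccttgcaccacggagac
Prss50: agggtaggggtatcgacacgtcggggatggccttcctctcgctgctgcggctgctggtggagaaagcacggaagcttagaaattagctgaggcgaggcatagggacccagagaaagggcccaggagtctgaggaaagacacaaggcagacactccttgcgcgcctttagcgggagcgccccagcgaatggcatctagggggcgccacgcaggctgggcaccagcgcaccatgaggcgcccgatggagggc
Prss37: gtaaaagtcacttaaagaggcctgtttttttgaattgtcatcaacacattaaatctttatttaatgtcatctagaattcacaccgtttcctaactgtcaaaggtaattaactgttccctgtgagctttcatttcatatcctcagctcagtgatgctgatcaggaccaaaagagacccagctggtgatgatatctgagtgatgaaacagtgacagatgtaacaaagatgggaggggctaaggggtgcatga
Prss58: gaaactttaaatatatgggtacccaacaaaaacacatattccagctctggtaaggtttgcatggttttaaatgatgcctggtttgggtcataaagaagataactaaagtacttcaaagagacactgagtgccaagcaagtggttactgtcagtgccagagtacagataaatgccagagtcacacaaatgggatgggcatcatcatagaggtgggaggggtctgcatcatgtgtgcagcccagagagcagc
The Prss46 window had 58.0% G and C and 8 CpG dinucleotides, and the Prss50 window 63.6% and 17. The Prss37 and Prss58 windows had 39.6% and 44.0% G and C, with 1 and 0 CpG, against medians of 52.4% and 6 over the 32851 promoters of the RefSeq table.

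The motifs below were searched on both strands of these 250-base windows, of which the 21 genes had 29. GTTGCCA, the core of the site of RFX factors, which act in spermatids, was found in Prss46, beginning 117 bases upstream, and in no other of the 21 genes, and 3.66% of the 32851 promoters held it. TGACGTCA, the full site of CREB-type factors, was in none of the 21 (1.55% of promoters). Its first letters, TGACG, were in 8 of the 29 windows, against 17.8% of promoters. These windows belong to Prss23, Prss35, Prss38 and Tmprss12, where Prss23 has several starts. CCAAT was in 7 of the 29 windows, those of Prss21, Prss35, Prss36, Prss39, Prss42, Prss46 and Prss54 (33.8% of promoters), and TATAAA in none (12.4%). TGACG lies inside the full site. Genes with CCAAT included members of both directions.

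The 9 genes that rose with heat in wild type were Prss12, Prss23, Prss35, Prss36, Prss50, Tmprss2, Tmprss5, Tmprss6 and Tmprss13, and 8 of them also rose in the knockout. Their means were 2.29 to 15.6-fold higher in wild type and 1.31 to 3.67-fold higher in the knockout. Both upper ends are those of Tmprss13. Tmprss13, Prss12 and Tmprss2 met the threshold through the heated libraries, so their rises were set in part by the choice. Beside the 9 genes in wild type, 15 of 15 Sertoli cell markers rose, as did 10 of 10 Leydig cell, 10 of 10 leukocyte, 7 of 7 myoid cell and 8 of 8 endothelial markers, where 46.4% of rows tested rose. Germ-cell markers rose as well: 8 of 12 tested for spermatogonia, where 1 fell, and 7 of 10 for early meiotic prophase, where 2 fell. All 12 round spermatid markers fell there, where 44.0% of rows fell. The Leydig cell sum was 1157 to 1668 TPM in unheated and 5238 to 7242 TPM in heated wild-type libraries, beside 1509 to 2195 and 4471 to 5731 TPM in the knockout. The leukocyte sum was 80.1 to 104 TPM before and 484 to 676 TPM after heat in wild type, and 98.0 to 143 and 252 to 348 TPM in the knockout. The myoid sum was 131 to 156 and 542 to 697 TPM in wild type, and 147 to 188 and 301 to 430 TPM in the knockout. The endothelial sum was 17.2 to 20.3 and 74.4 to 94.0 TPM in wild type, and 19.4 to 22.4 and 37.7 to 53.1 TPM in the knockout. The 4 sums were thus higher after heat in both genotypes, and the heated ranges of all but the Leydig cell sum were lower in the knockout without overlap. No marker of these 4 lists was at 0 throughout a group, and the part of these cell types in the rises was not tested. TPM values are shares of a fixed total, so a loss of other transcripts also raises them. That part was not tested either.

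Prss35, which encodes a secreted protein of protease fold without the catalytic serine, rose by the most TPM among the 9. It lies at chr9:86743649-86758443. Its levels were 6.08 to 6.91 TPM (median 6.41 TPM) in unheated wild type and 7.17 to 9.73 TPM (median 8.31 TPM) in the unheated knockout. The heated libraries were at 51.4, 78.6, 49.7 and 53.5 TPM in wild type and at 20.4, 27.1, 20.5, 26.8 and 17.9 TPM in the knockout. The 4 groups did not overlap, with heated wild type the highest. The rise was 2.97 ± 0.12 (log2) in wild type and 1.32 ± 0.12 in the knockout, and the difference was -1.65 ± 0.17 (adjusted p = 3.735e-08).

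Tmprss13, a transmembrane protease of epithelia, went from 0.29 to 0.38 TPM in unheated wild type to 5.55, 4.59, 5.54 and 5.27 TPM with heat, and from 0.32 to 0.56 TPM in the unheated knockout to 1.14, 2.58, 1.33, 2.11 and 1.25 TPM. Prss12, which encodes neurotrypsin, the protease that cleaves agrin, had heated libraries at 3.83, 5.67, 4.29 and 4.52 TPM in wild type and at 1.39, 1.66, 1.31, 2.14 and 0.95 TPM in the knockout. Tmprss5 and Prss36, the latter encoding polyserase-2, had heated means of 2.60 ± 0.292 and 5.54 ± 0.789 TPM in wild type and 1.46 ± 0.154 and 5.44 ± 1.10 TPM in the knockout. The heated means of Prss36 differed by less than the spread between libraries (log2 difference -0.03 ± 0.12, adjusted p = 0.8265).

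Tmprss6, which encodes matriptase-2, a regulator of hepcidin and iron uptake, rose in wild type by 1.32 ± 0.20 (log2) with heated libraries at 6.13, 3.88, 2.51 and 4.91 TPM. In the knockout it was not called (0.23 ± 0.19, adjusted p = 0.2689), and its heated libraries at 1.01, 2.25, 1.88, 3.16 and 1.47 TPM overlapped the unheated ones. Tmprss2, known for activating viral surface proteins in the airway, had heated means of 1.29 ± 0.401 TPM in wild type and 0.778 ± 0.12 TPM in the knockout. Heated wild-type library 3, the one high in epididymal markers, was at 1.88 TPM, and the other 3 were at 1.12, 1.19 and 0.98 TPM. After heat Tmprss2 was lower in the knockout by the test (-0.35, adjusted p = 0.006461), and less so without library 3 (-0.24, adjusted p = 0.04112). Without libraries 1 and 3 it was not called (-0.23, adjusted p = 0.09164).

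**Figure D4:**
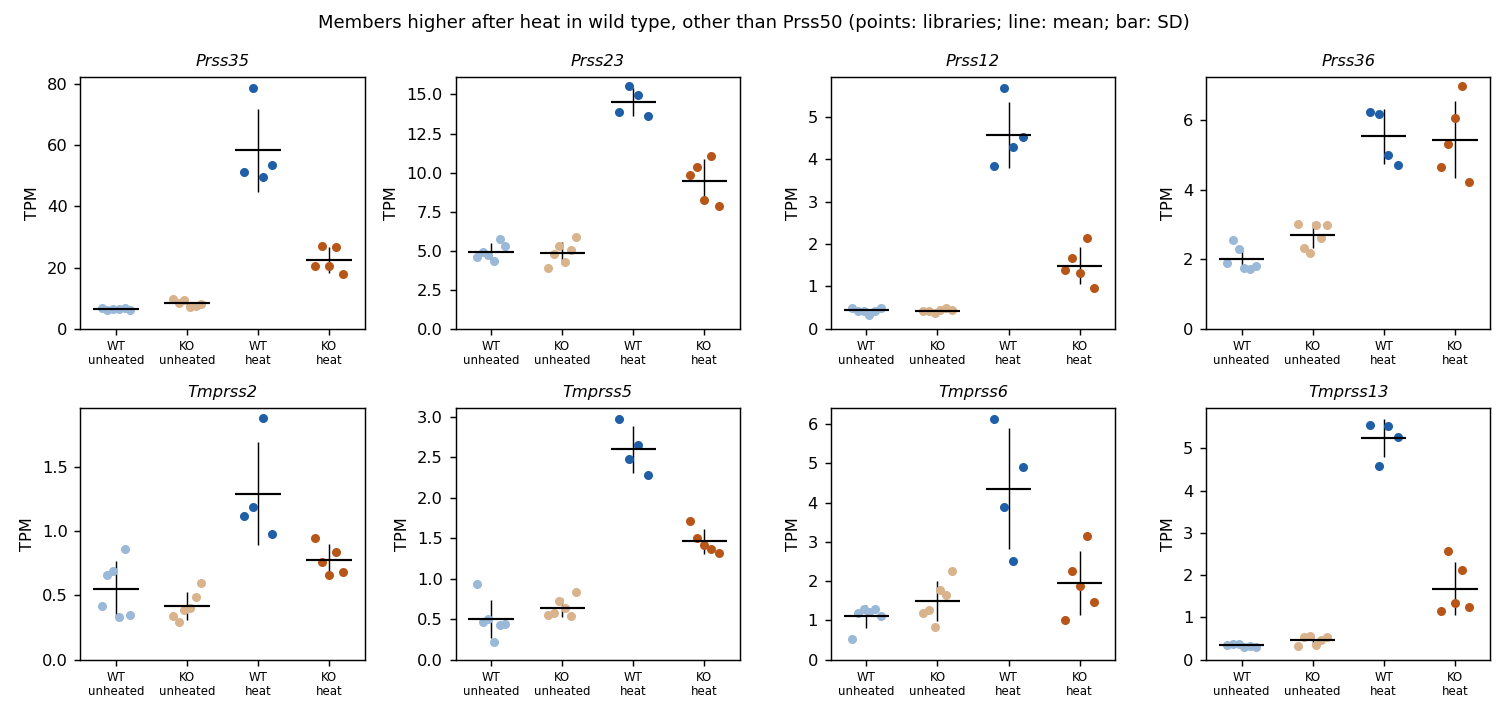
TPM (linear axis from 0) of the 8 genes other than Prss50 that rose with heat in wild type, per library, with the group mean (line) and SD (bar). Heated knockout libraries lie between the unheated libraries and heated wild type for Prss35, Prss23, Prss12, Tmprss5 and Tmprss13.

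Without heat, 0 of the 30 were called between knockout and wild type, where 0.946% of rows tested were called (limma, adjusted p under 0.05). At an unadjusted p under 0.05, Prss35, Prss36 and Prss41 were higher in the knockout, 3 of 30 against 15.3% of rows tested. Groups did not overlap for 2 of the 30, against 4.48% of rows tested. With only the 2 groups in the fit, Prss35 (0.33, adjusted p = 0.02269) and Prss45 (0.19, adjusted p = 0.0314) were called higher in the knockout, and with library weights Prss35 (0.35, adjusted p = 0.006339) and Prss41 (0.20, adjusted p = 0.03674). With all 4 groups in the fit and no weights, the size of the changes was at most 0.33 (log2) in either direction. The genome-wide share was lower whichever single unheated library was left out, by unequal amounts. With all libraries 188 rows were higher in the knockout and 15 lower. The counts were 172 and 9 without unheated wild-type library 4, and 14 and 4 without library 2 or 3 of that group. None of the 30 was called with any single unheated library left out.

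After heat, 21 of the 30 were higher in the knockout than in wild type, 8 lower and 1 not called, where 33.2% of rows tested were higher and 47.2% lower. The median was 1.16 against -0.18 over the rows tested. Libraries did not overlap for 26 of the 30, against 68.8% of rows tested. The highest ratios were those of Prss52 (20.6-fold), Prss51 (15.2-fold), Prss37 (10.3-fold), Prss55 (9.62-fold) and Prss58 (9.06-fold). Leaving out heated wild-type library 1 raised them to 36.5, 21.4, 13.0, 12.1 and 11.0-fold. Next came Prss47 (8.53-fold), Prss21 (5.49-fold), Prss43 (5.36-fold) and Prss45 (4.73-fold), then Prss56, Prss23os and Prss42 at 4.33, 4.02 and 4.00-fold. Heated wild type exceeded the heated knockout by 3.11-fold for Tmprss13, 3.07-fold for Prss12 and 2.59-fold for Prss35. For Prss50 the difference was -0.28 ± 0.12 (adjusted p = 0.0353), and it was not called without heated knockout library 1 or without heated wild-type library 1, 2 or 4 (adjusted p = 0.05581 to 0.1276). It was also not called without libraries 1 and 3 of heated wild type (0.09842), with no filter (0.05882), median-of-ratios scaling (0.1056), quantile normalization (0.1774) or library weights (0.1105, all adjusted p). Prss38, higher in the knockout by 0.29 ± 0.10 (adjusted p = 0.0132), was not called without heated wild-type library 2 (adjusted p = 0.05495), under quantile normalization (0.14, adjusted p = 0.1603) or with library weights (adjusted p = 0.07241).

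**Figure D5:**
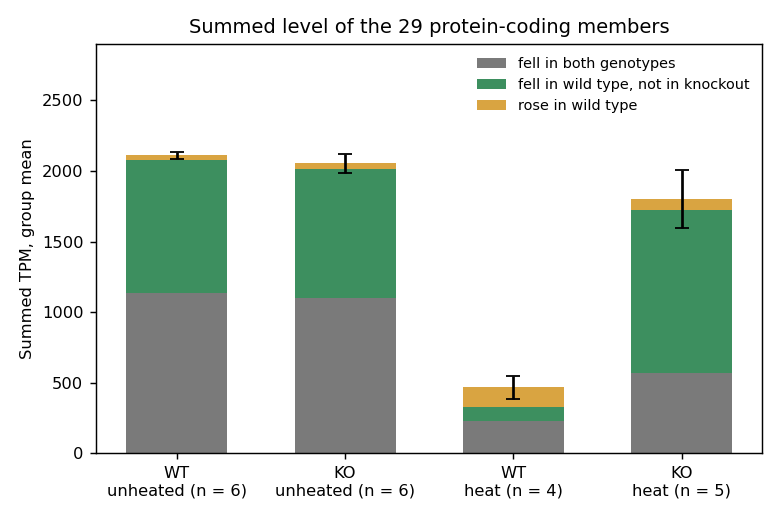
Mean summed TPM of the 29 protein-coding genes per group, stacked by the 3 directions, with the SD of the total. After heat the wild-type total is 469 TPM and the knockout total 1802 TPM, and the genes that fell in wild type and not in the knockout make up 64.2% of the latter. The directions were sorted by the same heat calls, so this share follows in part from the sorting.

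Genes that act with these proteases were read from lists written with earlier results of the data known. Of 29 genes of sperm surface and ADAM3 maturation, 24 fell and 4 rose with heat in wild type, and 18 fell and 7 rose in the knockout. Of all rows tested, 44.0% fell and 46.4% rose in wild type and 40.2% fell and 40.3% rose in the knockout. The median changes were -3.01 and -1.25 (log2), against 0.06 and 0.01 over the rows tested. Adam3, the sperm surface protein that PRSS37, PRSS55 and TMPRSS12 are needed to mature, had heated libraries at 181, 108, 147 and 174 TPM in wild type and at 554, 450, 455, 512 and 628 TPM in the knockout, against 895 to 1074 TPM and 796 to 993 TPM without heat. It fell 6.25-fold in wild type and 1.73-fold in the knockout. The fall in the knockout was called (-0.80 ± 0.11, adjusted p = 7.248e-07). Cmtm2a fell 16.4-fold in wild type and 2.23-fold in the knockout, and Cmtm2b changed by -4.04 ± 0.16 and -1.25 ± 0.15 (log2). The 4 that rose in wild type were Calr, which encodes the chaperone calreticulin, Pdia3, Tpst2 and Tex101, of which the last 3 were named after their values were seen. Ube2j1, a ubiquitin-conjugating enzyme of the endoplasmic reticulum, fell by 0.34 ± 0.06 in wild type and rose by 0.51 ± 0.05 in the knockout, and its fall in wild type was not called under quantile normalization (-0.09, adjusted p = 0.1193).

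Of 24 tested trypsin-fold proteases with other names, 14 rose and 6 fell with heat in wild type, and 16 rose and 3 fell in the knockout, where 46.4% and 44.0% of rows tested rose and fell in wild type and 40.3% and 40.2% in the knockout. The median changes were 0.72 and 0.51, against 0.06 and 0.01 over the rows tested. Acr, which encodes acrosin, the main acrosomal protease, had heated libraries at 9.87, 2.25, 3.02 and 8.12 TPM in wild type and at 43.8, 27.9, 31.2, 24.2 and 60.5 TPM in the knockout, against 211 to 227 TPM and 213 to 228 TPM without heat. Its log2 changes were -5.21 ± 0.26 and -2.60 ± 0.25. Its partner Acrbp, which holds proacrosin, fell 21.2-fold in wild type and 3.59-fold in the knockout. Gzmn fell 2.87-fold in wild type and 1.36-fold in the knockout, and its fall in the knockout was not called under quantile normalization (-0.20, adjusted p = 0.06043). C1s1, a complement protease, and Htra3 rose 10.2-fold and 6.27-fold in wild type and 3.17-fold and 2.87-fold in the knockout. Klk1b21 and Klk1b24, 2 close paralogs whose reads can be split between them, rose in both genotypes and did not differ at the threshold between knockout and wild type after heat (adjusted p = 0.3609 and 0.4993). Without heated wild-type library 2 that difference was called for Klk1b21 (adjusted p = 0.04294). The heated and unheated wild-type libraries of Klk1b21 overlapped.

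Of 35 tested serine protease inhibitors, 26 rose and 3 fell with heat in wild type, and 22 rose and 3 fell in the knockout, beside the same shares of all rows (46.4% and 44.0%, then 40.3% and 40.2%). The median changes were 1.65 and 0.63, against 0.06 and 0.01 over the rows tested. Spink2, the acrosomal inhibitor that restrains acrosin in developing sperm, fell 17.0-fold in wild type and 3.44-fold in the knockout. The other 2 that fell in both, A2m and Serpinb6c, were named after their values were seen. Serpina5, the protein C inhibitor, had heated libraries at 665, 764, 663 and 618 TPM in wild type and at 254, 350, 263, 354 and 271 TPM in the knockout, against 56.3 to 70.7 TPM and 75.1 to 101 TPM without heat. Eppin, an inhibitor on the sperm surface, and Spint2 rose 6.55-fold and 2.56-fold in wild type and 2.61-fold and 1.48-fold in the knockout. Serpinb6a changed little, at 1.18-fold of the unheated level in wild type and 1.04-fold in the knockout. Its rise in wild type was not called with median-of-ratios scaling (0.065, adjusted p = 0.2977). Wfdc10 was at 642 TPM in heated wild-type library 3, the one high in epididymal markers, and at 196 to 292 TPM in the other 3.

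The 27 rows under the threshold were not tested. Of these, 4, namely Prss1, Prss3, Prss27 and Prss29, were listed at 0 in each of the 21 libraries. Just outside the threshold was Prss8, which encodes prostasin, at a mean of 0.426 TPM, and just inside it Tmprss2 at 0.709 TPM and Tmprss5 at 1.17 TPM. Prss8 was the single one of the 27 to reach 1 TPM in any library, at 3.77 TPM in heated wild-type library 3, and at 0.28 to 0.51 TPM in libraries 1, 2 and 4 of that group. Prss53 and Tmprss9 followed at means of 0.283 and 0.277 TPM.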

How the data were processed

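RNA from whole testes was sequenced with an Illumina stranded mRNA kit, per the labels' protocols. The submitters' processing notes name STAR and mm10, and the sources used here name neither the abundance tool nor the annotation. Deposited TPM values were used, which the authors had scaled to a fixed total, so depth is unknown, intervals from counts cannot be given, and precision rests on the replicates (Pearson correlation 0.974 to 0.994 within groups). Values were taken as log2(TPM + 1). The 21450 rows whose mean reached 0.5 TPM entered 1 limma 3.58.1 model of 4 group means (R 4.3.3), with a mean-variance trend and Benjamini-Hochberg adjustment over the rows tested. Calls were made at an adjusted p under 0.05, and errors of log2 changes are moderated standard errors. Folds are ratios of mean TPM, and errors of TPM are SD. The script was tested on simulated data. Coordinates are from GENCODE M21. The members and lists were chosen with earlier results of these data known. Named genes were the members, the marker genes, Mageb4 and the 6 most abundant tested genes of each of the 3 related lists. Alternatives were another pseudocount (0.1), filters, scalings, designs, library weights, a replicate block and leaving out libraries.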

Additional observations from a re-analysis of the deposited data

Results flagged for a closer look

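In 12 of 192 groups of libraries (48 genes in 4 groups), 6.25%, 1 library stood apart from the rest by Dixon's test, where chance gives about 1 in 20. For the PRSS and TMPRSS genes this was so in 7 of 120 groups. The libraries were the low unheated wild-type library 1 for Tmprss6 (0.52 TPM), the high heated wild-type library 1 for Prss52 (18.7 TPM), the high heated wild-type library 2 for Prss35 (78.6 TPM) and the low unheated knockout library 4 for Prss45 (51.1 TPM). They also were the low heated knockout library 1 for Prss50 (26.1 TPM), the high unheated knockout library 1 for Prss38 (8.48 TPM) and the high heated knockout library 5 for Prss46 (12.5 TPM). Among the related genes, unheated wild-type library 2 was low for C1s1 (6.47 TPM). Unheated knockout library 6 was high for Serpina5 (101 TPM), Wfdc10 (129 TPM) and Eppin (83.5 TPM), and heated wild-type library 3 was high for Eppin (386 TPM).

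The effect of heat differed between knockout and wild type for 43 of the 48 genes, tested as the difference of the heat effects in limma (knockout minus wild type, log2). Of all rows tested, 31.6% were called positive and 45.4% negative in this test, so such calls were common. Among PRSS and TMPRSS genes the difference was positive for Prss52 (4.49), Prss51 (3.93), Prss37 (3.41), Prss55 (3.38), Prss58 (3.27), Prss21 (2.17), Prss47 (1.93), Prss45 (1.93), Prss23os (1.88), Prss43 (1.79), Prss42 (1.67), Prss54 (1.61), Tmprss12 (1.47), Prss40 (1.33), Prss39 (1.25), Prss44 (1.13), Prss56 (1.03), Prss46 (0.98), Prss48 (0.84) and Prss38 (0.30). It was negative for Prss35 (-1.65), Tmprss13 (-1.37), Prss12 (-1.17), Tmprss6 (-1.09), Tmprss5 (-0.69), Prss23 (-0.55) and Prss50 (-0.48). Among the related genes it was positive for Cmtm2a (2.95), Cmtm2b (2.80), Acrbp (2.66), Acr (2.61), Spink2 (2.39), Adam3 (1.86), Gzmn (1.05) and Ube2j1 (0.85), and negative for C1s1 (-1.62), Serpina5 (-1.58), Eppin (-1.32), Htra3 (-1.07), Calr (-0.89), Wfdc10 (-0.83), Spint2 (-0.79) and Serpinb6a (-0.18). For Wfdc10 the difference was -0.46 without heated wild-type library 3 (adjusted p = 0.01724), and it was not called without libraries 1 and 3 (-0.28, adjusted p = 0.1048). For Serpinb6a it was not called with median-of-ratios scaling (-0.073, adjusted p = 0.4166), nor without heated knockout library 5 (adjusted p = 0.05244) or heated wild-type library 2 (adjusted p = 0.07343).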

How the results depend on the processing

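The 9 rises and 21 falls with heat in wild type, and the 10 rises and 15 falls in the knockout, were the counts whichever single library was left out. In the knockout they were 12 and 14 under quantile normalization, and 12 and 15 with only the groups compared in the fit or without heated wild-type libraries 1 and 3. After heat, 20 to 21 of the 30 genes were higher and 7 to 8 lower in the knockout, and the difference between the heat effects was positive for 19 to 21 and negative for 7 to 8. Without heat, the count higher in the knockout was 2 with only the groups compared in the fit and 2 with library weights, against 0. Over the 21450 rows tested the counts higher and lower were then 1064 and 131, and 1929 and 209, against 188 and 15. They were 370 and 10 with a pseudocount of 0.1, 66 and 14 with no filter (39589 rows), 97 and 17 with median-of-ratios scaling, 38 and 22 with quantile normalization and 132 and 9 with the replicate block. They were 172 and 9 without unheated wild-type library 4, 135 and 10 without library 6, 14 to 77 and 4 to 7 without any other of that group, and 19 to 76 and 4 to 10 without any 1 unheated knockout library. The count was lowest without unheated wild-type library 2 or 3 (14 and 4) and without unheated knockout library 6 (19 and 4). Without heated wild-type libraries 1 and 3 it was 115 and 10. The cause was not tested. Median-of-ratios scaling lowered the median change of the rows tested with heat in wild type by 0.12 (log2). The sign of Wfdc10 between knockout and wild type after heat turned from -0.49 to 0.051 when heated wild-type libraries 1 and 3 were removed, a setting chosen after seeing the data, with which 6 of the 30 were lower in the knockout after heat. Same-numbered libraries were about as alike as others: their deviations from group means correlated at -0.198 to 0.281 over 28 pairs (median 0.005). The 136 pairs with different numbers correlated at -0.318 to 0.358 (median -0.011), and 1 of 21 libraries correlated best with its own number. The labels do not say whether a number stands for anything shared. With the replicate block the counts were 9 and 21, 10 and 15, 0 and 0, 21 and 8, and 20 and 7 in the order of the comparisons, and no PRSS or TMPRSS call changed. The fit with only the groups compared was not run for the difference of the heat effects. TPM carries no depth, so the counting error of genes near 0.5 TPM is not known.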
